A study of Mus musculus with 30 samples.

Results

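The Schlafen genes measured here were Slfn1, Slfn2, Slfn3, Slfn4, Slfn5, Slfn8 and Slfn9, 7 mouse genes that lie close together on chromosome 11. They were found on the arrays as every non-control probe that carries one of the 7 symbols, which gave 10 of the 39429 non-control probes. All 10 probes, and so all 7 genes, passed the filter on dim probes described under the processing, as did 23609 probes and 18718 genes in all. The 7 genes had been chosen because several of them rose after irradiation in these same data. Their change with irradiation is therefore given as a description with no test, and tests are given only for the genotype comparisons.

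The study asked how the stress kinase p38 affects the blood transcripts that are used to estimate a radiation dose. Blood was taken by heart puncture from male mice of the strain C57BL/6J and lysed at once in an RNA stabiliser. There were 3 genotypes, named p38WT, p38DKI and p38DN, and in each of them 5 mice were left unirradiated and 5 received 7 Gy of x-rays 24 h before sampling, which gave 6 groups and 30 arrays. The labels give neither the alleles behind the names DKI and DN nor the ages of the animals, and they describe the 5 samples of a group as independent experiments. Each array read 1 blood RNA in 1 colour.

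Schlafen genes are a vertebrate family first found as brakes on the growth of T cells. Many members are induced by type I interferon, which acts through the kinases Jak1 and Tyk2 and the Stat and Irf factors, and they are expressed in lymphocytes, neutrophils, monocytes and macrophages. Slfn1 and Slfn2 are short proteins, Slfn3 and Slfn4 are of intermediate length, and Slfn5, Slfn8 and Slfn9 are long proteins with a helicase-like part at the end. Slfn2 keeps resting T cells quiescent, Slfn4 is an interferon-induced gene of myeloid cells, and the human relative SLFN11 of Slfn8 and Slfn9 sensitises cells to DNA damage.

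The 60-base probes are what the array measures, so they are shown first, since for 3 of the genes the choice of probe turned out to change the reading. Capitals mark a run of 19 bases that the brighter Slfn8 probe shares with the dimmer Slfn9 probe. No other pair of probes of different members shared a run above 9 bases, and no probe shared a run of 18 bases with a non-Schlafen probe of the array. Positions are those the array files give, on the mouse build mm9, and the sequences run 5′ to 3′.
Slfn1 probe, plus strand, chr11:82935656-82935715: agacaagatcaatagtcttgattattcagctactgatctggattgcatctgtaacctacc
Slfn2 probe, plus strand, chr11:82883791-82883850: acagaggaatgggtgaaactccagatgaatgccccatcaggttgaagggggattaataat
Slfn3 probe, plus strand, chr11:83028431-83028490: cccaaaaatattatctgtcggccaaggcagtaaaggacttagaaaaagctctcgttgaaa
Slfn4 probe, plus strand, chr11:83002974-83003033: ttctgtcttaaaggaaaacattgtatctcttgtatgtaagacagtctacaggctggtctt
Slfn5 brighter probe, plus strand, chr11:82765536-82765595: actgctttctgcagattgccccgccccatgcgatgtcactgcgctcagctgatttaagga
Slfn5 dimmer probe, plus strand, chr11:82774907-82774966: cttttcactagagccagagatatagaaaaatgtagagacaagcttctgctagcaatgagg
Slfn8 brighter probe, minus strand, chr11:82815804-82815863: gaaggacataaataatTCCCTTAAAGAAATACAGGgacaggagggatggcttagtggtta
Slfn8 dimmer probe, minus strand, chr11:82830985-82831044: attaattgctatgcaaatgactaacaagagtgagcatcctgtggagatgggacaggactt
Slfn9 brighter probe, minus strand, chr11:82793812-82793871: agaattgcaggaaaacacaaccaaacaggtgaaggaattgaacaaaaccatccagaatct
Slfn9 dimmer probe, minus strand, chr11:82793914-82793973: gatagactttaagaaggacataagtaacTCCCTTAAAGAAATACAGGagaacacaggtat

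The member probes span 262955 bases from the first to the last. Slfn1 to Slfn5 are read from the plus strand and Slfn8 and Slfn9 from the minus strand. Slfn8 and Slfn9 are close relatives, and a probe of one may also bind RNA of the other, which these signals cannot tell apart.

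The promoters of the members show what lies before their annotated starts. RefSeq promoter sequences of the build GRCm38.p6, 250 bases before to 50 bases after each start, were at hand for all 7 members, with 2 starts for Slfn8. They were searched on both strands for the core of the interferon-stimulated response element (the letters GAAA repeated with any 2 bases between), for the gamma-activated element TTCNNNGAA and for the AP-1 site TGANTCA. These letters occur in 3.44%, 8.30% and 7.81% of the 32851 promoters of the table. The response element core was present before Slfn5, Slfn8 and Slfn9, the AP-1 letters were present before Slfn4 alone among the members, and the gamma-activated letters were in none of the 8 member sequences. Matches of different motifs do not overlap one another, the 2 windows of Slfn8 hold 1 and the same match, and Slfn1, Slfn2 and Slfn3 hold none of the 3.
In the next 3 sequences capitals mark the AP-1 letters of Slfn4, 34 bases before its start, and the response element letters of Slfn8 and Slfn9, 48 and 45 bases before theirs. In the last, Slfn5, capitals mark the 60 bases that are also the brighter Slfn5 probe, and its response element letters, 155 bases before the start, are in lower case.
Slfn4 promoter, plus strand, chr11:83174936-83175235: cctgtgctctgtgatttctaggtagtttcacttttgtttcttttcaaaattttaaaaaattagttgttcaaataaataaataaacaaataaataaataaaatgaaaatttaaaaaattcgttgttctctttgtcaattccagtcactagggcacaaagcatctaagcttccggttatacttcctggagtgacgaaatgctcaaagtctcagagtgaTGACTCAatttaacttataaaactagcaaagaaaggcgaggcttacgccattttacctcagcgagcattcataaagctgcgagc
Slfn8 promoter, first start, minus strand, chr11:83020761-83021060: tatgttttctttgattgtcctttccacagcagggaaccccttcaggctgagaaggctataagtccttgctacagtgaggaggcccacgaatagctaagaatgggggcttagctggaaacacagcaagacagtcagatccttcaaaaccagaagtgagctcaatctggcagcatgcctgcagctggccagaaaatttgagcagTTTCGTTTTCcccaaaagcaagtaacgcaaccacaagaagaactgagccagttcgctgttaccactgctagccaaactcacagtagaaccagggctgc
Slfn9 promoter, minus strand, chr11:82991781-82992080: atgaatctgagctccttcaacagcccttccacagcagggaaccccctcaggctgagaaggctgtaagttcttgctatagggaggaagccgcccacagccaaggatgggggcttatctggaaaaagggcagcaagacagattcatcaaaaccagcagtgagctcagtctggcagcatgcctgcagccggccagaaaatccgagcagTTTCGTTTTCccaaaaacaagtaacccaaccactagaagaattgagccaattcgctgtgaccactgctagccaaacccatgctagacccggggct
Slfn5 promoter, plus strand, chr11:82951852-82952151: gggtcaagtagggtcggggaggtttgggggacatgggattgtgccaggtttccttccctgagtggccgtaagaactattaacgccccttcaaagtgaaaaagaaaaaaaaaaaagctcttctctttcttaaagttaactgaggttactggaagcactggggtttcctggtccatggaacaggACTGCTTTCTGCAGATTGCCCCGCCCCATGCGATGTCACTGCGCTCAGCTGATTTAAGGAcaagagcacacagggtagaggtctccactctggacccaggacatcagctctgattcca

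The brighter Slfn5 probe therefore reads RNA that lies, on GRCm38.p6, from 68 to 9 bases before the annotated Slfn5 start, at chr11:82952034-82952093 on the same strand. The array files assign it to an Ensembl transcript only, while the dimmer Slfn5 probe is assigned to the RefSeq transcript. No other member probe was found in any promoter of the table. A match of motif letters is a description of the sequence and not evidence that a factor binds there.

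Levels below are log2 of the scanner's processed signal minus the 75th percentile of the same array, so 0 is that percentile and a difference of 1 is a doubling. That percentile was an intensity of 43.3 to 230 across the arrays, and per array 39.7% to 63.2% of probes stood well above background. On 4 arrays (irradiated p38DKI 2 and unirradiated p38DN 2, 4 and 5) the 12 liver transcripts averaged over 5 log2 units above the median array. The 10 p38WT and 10 p38DKI arrays lay on 5 slides scanned on 1 day and the 10 p38DN arrays on 5 others, so levels of p38DN cannot be told apart from slide and scan day. All 12 neutrophil markers were well above background on every array of every group, whereas in each irradiated group this held for 5 of 10 B cell markers. In whole blood, fewer cells of a type and less RNA per cell cannot be told apart.

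**Figure D1:**
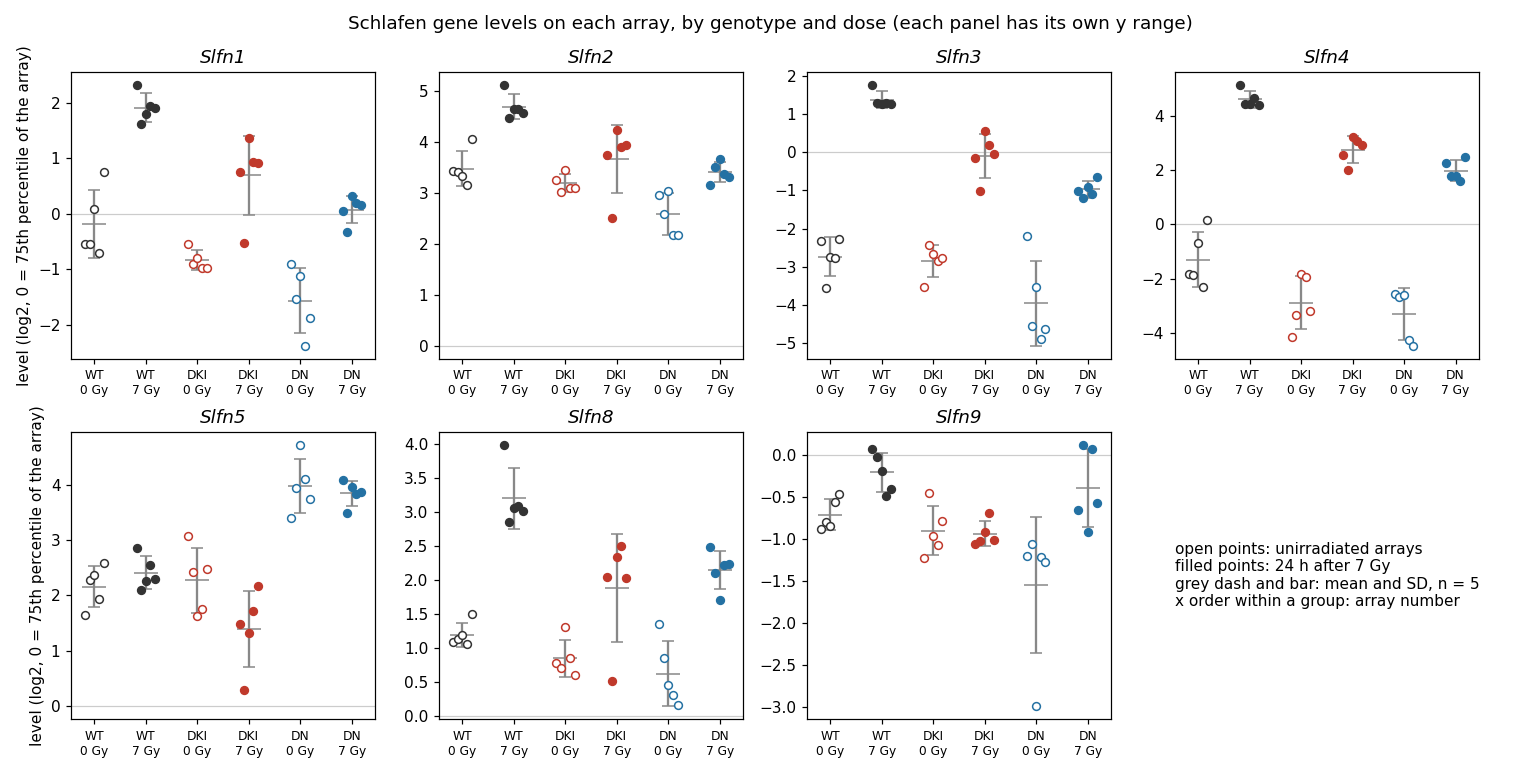
Level of each Schlafen gene (log2, 0 is the 75th percentile of the array) on each of the 30 arrays by genotype and dose, 1 panel per gene, with group mean and SD (n = 5); Slfn5, Slfn8 and Slfn9 are shown by their brighter probe. Slfn4 and Slfn3 rise in every genotype with no overlap between doses, the doses overlap for Slfn5, and the filled p38DKI points lie below the filled p38WT points for 6 genes.

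Slfn4, the myeloid interferon-induced member, showed the largest change of the family. In p38WT its levels on arrays 1 to 5 were -1.82, -1.86, -0.69, -2.29 and 0.16 without irradiation and 5.13, 4.42, 4.42, 4.63 and 4.38 after 7 Gy. In p38DKI they were -4.12, -3.32, -1.81, -1.92 and -3.18 without irradiation and 2.56, 2.0, 3.23, 3.07 and 2.91 after it. In p38DN they were -2.57, -2.65, -2.59, -4.24 and -4.46 without irradiation and 2.27, 1.80, 1.77, 1.58 and 2.48 after it. Every irradiated array lay above every unirradiated array of any genotype, and the 5 irradiated p38WT arrays lay above all other irradiated arrays. The change was 5.90 (SE 0.456, 59.5-fold) in p38WT, 5.62 (SE 0.456, 49.3-fold) in p38DKI and 5.28 (SE 0.456, 38.9-fold) in p38DN. Unirradiated Slfn4 was dim: the probe was well above background on 5 of 5 arrays in p38WT but on 2 of 5 in p38DKI and 2 of 5 in p38DN, so the last 2 folds rest on baselines near the limit of detection. With a background correction (normexp) that adds an offset of 50, the rises were 3.96, 2.90 and 1.74 log2 units in the same order. That offset is above the unirradiated Slfn4 signals of p38DKI (2.91 to 34.0) and p38DN (4.86 to 17.2). Adding it shrinks a change from a dim baseline, so these smaller values do not test the size of the rises. The same applies below to normexp changes of other members with dim baselines.

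Before irradiation Slfn4 varied widely between p38WT arrays. The 2 highest unirradiated p38WT arrays were 3 and 5, which were also the 2 highest for Slfn1 and the 2 with the highest mean neutrophil marker level (3.29 and 3.79, against 2.0 to 2.62 on the other 3). Array 5 shared a slide with 3 irradiated p38WT arrays, while the other unirradiated p38WT arrays lay on another slide. It was the highest of its group for every member (brighter probes). Animal and slide cannot be told apart for it, and the part of the slide and of the neutrophil markers in the Slfn4 level was not tested.

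Slfn3, next to Slfn4 on the chromosome and of the same intermediate length class, showed the second largest change. Its p38WT levels were -2.33, -3.56, -2.73, -2.78 and -2.28 without irradiation and 1.76, 1.30, 1.25, 1.29 and 1.25 after 7 Gy. The p38DKI levels were -3.52, -2.42, -2.68, -2.84 and -2.78 and then -0.16, -1.03, 0.55, 0.18 and -0.052. The p38DN levels were -2.2, -4.56, -3.53, -4.88 and -4.62 and then -1.01, -1.20, -0.90, -1.11 and -0.64. Irradiated and unirradiated arrays did not overlap in any genotype, and the irradiated levels stood in the order p38WT, p38DKI, p38DN, with p38DKI array 2 falling among the p38DN arrays. The change was 4.10 (SE 0.363, 17.2-fold) in p38WT, 2.75 (6.71-fold) in p38DKI and 2.98 (7.91-fold) in p38DN, all 3 with the same SE. Under normexp, where the offset again shrinks changes from a dim baseline, the change was 1.86, 0.71 and 0.26 in the same order. In p38DN it was 1.89 without the 4 arrays high in liver transcripts. The unirradiated probe was well above background on 4, 3 and 1 of 5 arrays in p38WT, p38DKI and p38DN.

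Slfn1, which slows T cell growth when it is overexpressed, was detected on all arrays. Its p38WT levels went from -0.55, -0.55, 0.081, -0.71 and 0.76 to 2.32, 1.61, 1.80, 1.93 and 1.90. In p38DKI they went from -0.54, -0.92, -0.80, -0.98 and -0.98 to 0.75, -0.52, 1.37, 0.92 and 0.92. In p38DN they went from -0.91, -1.54, -1.13, -2.38 and -1.88 to 0.042, -0.34, 0.31, 0.19 and 0.15. The doses did not overlap in any genotype, although p38DKI array 2 lay only just above its unirradiated group. The change was 2.10, 1.53 and 1.64 in p38WT, p38DKI and p38DN (SE 0.301 each). Under normexp it was 1.20, 0.78 and 0.32, with slide as a fixed block it was 1.15 in p38WT, and without the 4 liver-high arrays it was 1.09 in p38DN.

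Slfn2, the guardian of T cell quiescence, was bright in every group and changed less. Its p38WT levels went from 3.43, 3.41, 3.34, 3.15 and 4.05 to 5.12, 4.47, 4.65, 4.64 and 4.57. In p38DKI they went from 3.26, 3.02, 3.46, 3.09 and 3.10 to 3.74, 2.50, 4.23, 3.89 and 3.94. In p38DN they went from 2.96, 2.58, 3.03, 2.17 and 2.17 to 3.15, 3.51, 3.66, 3.36 and 3.31. The doses did not overlap in p38WT or p38DN. In p38DKI they overlapped through array 2, the irradiated array high in liver transcripts, which lay below every unirradiated p38DKI array while the other 4 lay above them all. The change was 1.21, 0.47 and 0.82 in p38WT, p38DKI and p38DN (SE 0.245 each). In p38WT it was 0.47 under normexp and 0.70 with slide as a fixed block. In p38DKI it ranged from 0.32 under quantile normalization to 0.89 under array median scaling, with 0.76 when array 2 was left out. In p38DN it was 0.42 with the liver covariate and 0.40 without the liver-high arrays.

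Slfn8, a long member with a helicase-like part, was read by 2 probes. On the brighter one the p38WT levels went from 1.08, 1.13, 1.18, 1.05 and 1.49 to 3.98, 2.85, 3.06, 3.08 and 3.01. In p38DKI they went from 0.78, 0.71, 1.30, 0.84 and 0.60 to 2.03, 0.50, 2.34, 2.49 and 2.02. In p38DN they went from 1.34, 0.84, 0.45, 0.31 and 0.15 to 2.47, 2.09, 1.70, 2.21 and 2.23. The doses did not overlap in p38WT or p38DN, and in p38DKI array 2 again lay below its whole unirradiated group. The change was 2.01, 1.03 and 1.52 (SE 0.286 each) in p38WT, p38DKI and p38DN, and 1.23, 0.90 and 0.94 under normexp. On the dimmer Slfn8 probe it was 1.93 in p38WT and 0.43 in p38DKI (SE 0.307 each). In p38DN the dimmer probe was not well above background on any unirradiated array, so it gives only a bound, at least 1.22-fold higher after irradiation, measured against the lowest signal among probes well above background.

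Slfn9, the close relative of Slfn8, changed by amounts that depended on the probe and the setting. On its brighter probe the p38WT levels went from -0.88, -0.79, -0.84, -0.55 and -0.46 to 0.076, -0.024, -0.19, -0.48 and -0.40. In p38DKI they went from -1.22, -0.45, -0.95, -1.07 and -0.78 to -1.06, -1.02, -0.91, -0.69 and -1.0. In p38DN they went from -1.19, -1.05, -2.98, -1.21 and -1.27 to -0.65, 0.12, -0.92, 0.078 and -0.56. The doses did not overlap in p38DN, overlapped in p38WT through 1 irradiated array, and were mixed in p38DKI. The change was 0.50, -0.040 and 1.16 (SE 0.267 each) in p38WT, p38DKI and p38DN, and the p38DN value includes array 3, which lay far below its group without irradiation. Under normexp the changes were 0.32, -0.16 and 0.17, so the order of the genotypes differed, and array median scaling turned the p38DKI value to 0.38. On the dimmer probe, the one that shares 19 bases with Slfn8, the changes were 0.48, 0.26 and 0.50 (SE 0.371 each), and doses overlapped in every genotype. The deposited table holds only that dimmer Slfn9 probe, and there they were 0.68, 0.49 and 0.35.

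Slfn5 is the member for which the probes disagreed. On the brighter probe, which reads just before the annotated start, the p38WT levels were 1.64, 2.29, 2.37, 1.93 and 2.58 without irradiation and 2.86, 2.09, 2.26, 2.56 and 2.29 after it. In p38DKI they were 3.08, 2.43, 1.64, 1.76 and 2.47 and then 1.48, 0.29, 1.32, 1.72 and 2.16. In p38DN they were 3.40, 3.95, 4.72, 4.10 and 3.75 and then 4.09, 3.50, 3.96, 3.83 and 3.87. Doses overlapped in all 3 genotypes, and all 10 p38DN arrays lay above all 20 others. The change was 0.25, -0.88 and -0.13 (SE 0.296 each) in p38WT, p38DKI and p38DN, and the p38WT value lay between -0.26 and 0.72 over the other settings, so its sign depends on the setting. The p38DN value also turned, to 0.34 under normexp and 0.27 with the mean of both probes, and the p38DKI value was -0.16 with that mean.

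The dimmer Slfn5 probe, that of the RefSeq transcript, gave another picture. Its p38WT levels went from -3.02, -2.2, -2.64, -3.39 and -2.86 to -1.63, -1.42, -1.71, -1.5 and -1.93. In p38DKI they went from -3.73, -2.46, -3.81, -3.45 and -2.52 to -2.48, -3.53, -2.32, -2.48 and -2.36. In p38DN they went from -2.15, -3.45, -2.97, -3.95 and -4.71 to -2.94, -2.40, -2.84, -3.10 and -2.58. The doses did not overlap in p38WT and did in the other 2 genotypes, and the p38DN arrays did not stand above the rest. The change was 1.18 in p38WT, 0.56 in p38DKI and 0.67 in p38DN (SE 0.350 each), upward in all 3. In unirradiated p38DN this probe was well above background on 1 of 5 arrays. The gene-wide results below use the brighter probe by rule, so for Slfn5 they describe RNA read before the annotated start.

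**Figure D2:**
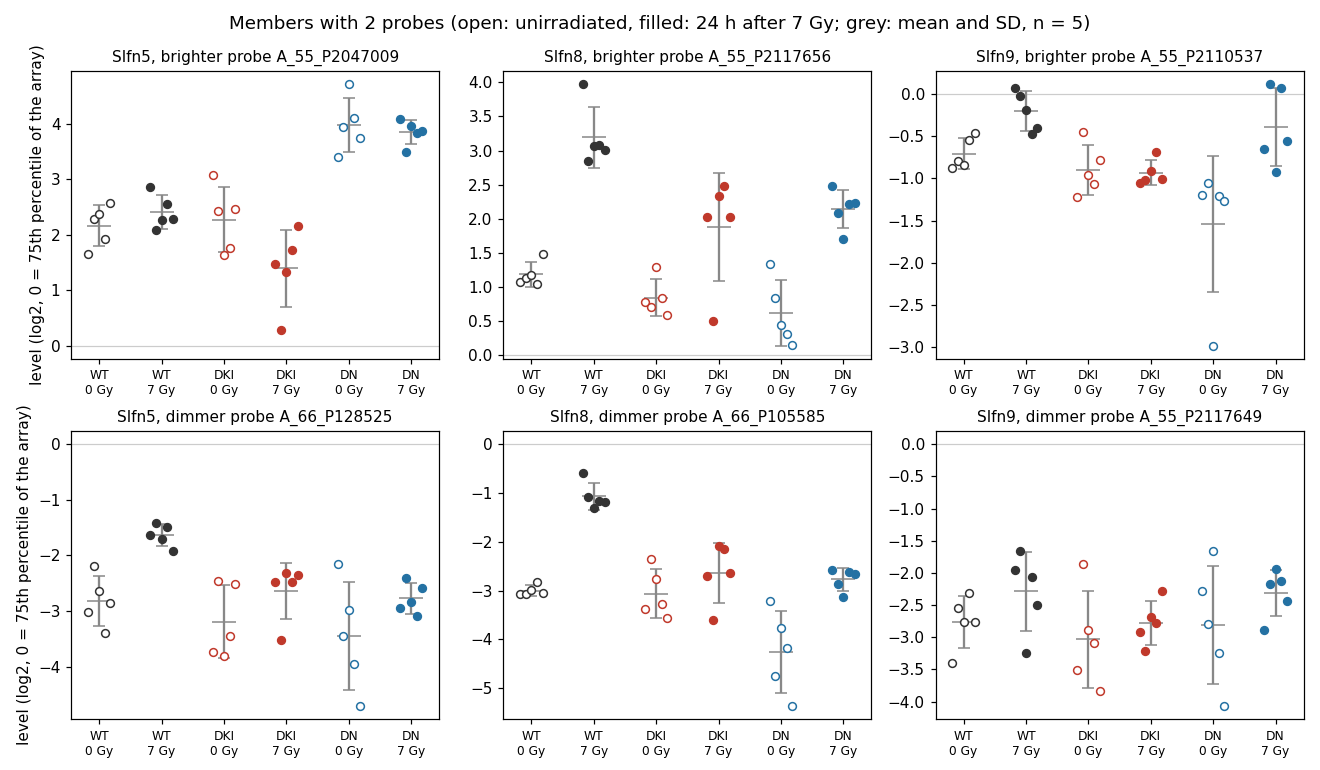
Level (log2, 0 is the 75th percentile of the array) on each array for the 2 probes of Slfn5, Slfn8 and Slfn9, with group mean and SD (n = 5), the brighter probe above and the dimmer below. For Slfn5 the brighter probe stands high in p38DN and its doses overlap in p38WT, while the dimmer one rises in p38WT with no overlap and is not higher in p38DN.

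Counted over the family, irradiated arrays lay wholly above unirradiated ones for 5 of 7 genes in p38WT (12.9% of all genes did), 3 of 7 in p38DKI (7.23%) and 6 of 7 in p38DN (12.4%). The genes were Slfn1, Slfn2, Slfn3, Slfn4 and Slfn8 in p38WT, Slfn1, Slfn3 and Slfn4 in p38DKI, and all but Slfn5 in p38DN. These contrasts chose the members, so nothing is read from the counts. The median change over the 7 genes was 2.01, 1.03 and 1.52 in p38WT, p38DKI and p38DN, beside medians of -0.033, -0.25 and 0.010 over all 18718 genes. The 3 genotypes have their own unirradiated groups, so these changes share no arrays. By size of change over all genes, Slfn4 ranked first in p38WT and p38DN and 4 from the top in p38DKI, and Slfn3 ranked 5, 210 and 53 from the top in p38WT, p38DKI and p38DN.

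Only the p38DN arrays allowed the doses to be compared many times on a shared slide, because each of their 5 slides held 1 unirradiated and 1 irradiated array. Within those pairs Slfn4 was higher after irradiation in 5 of 5, by 4.36 to 6.93 (mean 5.28 ± 1.09, SD, n = 5 pairs). Slfn3 was higher in 5 of 5, by 1.19 to 3.98, and Slfn1, Slfn2, Slfn8 and Slfn9 were also higher in 5 of 5. Slfn5, by its brighter probe, was higher in 2 of 5. In p38WT 1 slide held both doses (3 irradiated arrays and 1 unirradiated), and there Slfn4 differed by 4.49, against 5.90 in the whole group. That unirradiated array was array 5, the highest of its group for Slfn4. In p38DKI 1 slide held both doses (1 irradiated array and 3 unirradiated), with a Slfn4 difference of 4.87.

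**Figure D3:**
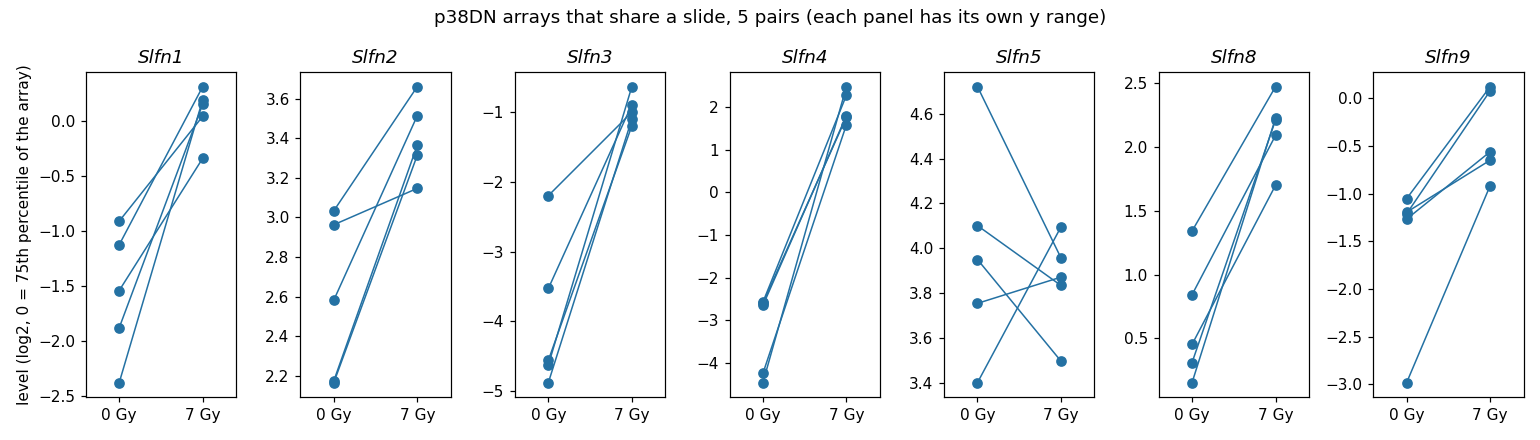
Levels (log2, 0 is the 75th percentile of the array) of the 7 Schlafen genes on the p38DN arrays, with lines joining the unirradiated and irradiated array of the same slide (5 pairs per panel). Slfn1, Slfn2, Slfn3, Slfn4, Slfn8 and Slfn9 go up in 5 of 5 pairs, and Slfn5 goes up in 2.

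Schlafen transcripts were lower, relative to the array's 75th percentile, in irradiated p38DKI than in irradiated p38WT blood. All 7 genes were lower, and 6 of 7 (Slfn1, Slfn2, Slfn3, Slfn4, Slfn5 and Slfn8) passed the test, limma with Benjamini-Hochberg adjustment over 18718 genes, of which 3.36% passed as lower and 1.15% as higher. Irradiated arrays of the genotypes did not overlap for Slfn1, Slfn2, Slfn3, Slfn4, Slfn8 and Slfn9, against 4.51% of all genes. The median difference over the family was -1.22, beside -0.10 over all genes. As the members were chosen by their rise after irradiation, which used these same irradiated arrays, the counts are given beside the share of all genes and are not an independent test of the family.

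The largest of these differences was that of Slfn4, whose irradiated mean was 4.60 ± 0.31 in p38WT and 2.75 ± 0.49 in p38DKI (SD, n = 5). It was 3.59-fold lower in p38DKI (log2 -1.84, 95% interval -2.78 to -0.91, limma adjusted p = 0.0237). Slfn3 had an irradiated mean of 1.37 ± 0.22 in p38WT and -0.10 ± 0.58 in p38DKI, 2.77-fold lower (interval -2.21 to -0.73, limma adjusted p = 0.0234).

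The short members followed. Slfn1 was 2.34-fold lower in p38DKI (log2 -1.22, interval -1.84 to -0.61, limma adjusted p = 0.0230). Slfn2 was 2.04-fold lower (log2 -1.03, interval -1.53 to -0.53, limma adjusted p = 0.0195).

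Among the long members Slfn8 had the smallest adjusted p of the family. Its irradiated mean was 3.19 ± 0.45 in p38WT and 1.88 ± 0.79 in p38DKI, 2.49-fold lower (interval -1.90 to -0.73, limma adjusted p = 0.0121). The dimmer Slfn8 probe gave -1.57 (limma adjusted p = 0.00600, here over 23609 probes). Slfn8 was also the gene that passed in all 30 fits that left out 1 array.

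For Slfn5 the probes differed in the call, and Slfn9 did not pass. Slfn5 differed by -1.02 on the brighter probe (interval -1.62 to -0.41, limma adjusted p = 0.0466) with overlapping arrays, and by -1.0 on the RefSeq probe, which did not pass (limma adjusted p = 0.0855 over probes). Slfn9 differed by -0.73 (interval -1.28 to -0.18), which did not pass (limma adjusted p = 0.0970).

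No slide held irradiated arrays of both genotypes, so genotype and slide could be separated only through the slides with unirradiated p38DKI arrays. Of these, 1 slide also held 2 irradiated p38WT arrays and the other also held 1 irradiated p38DKI array. The 4 irradiated p38DKI arrays alone on a slide add nothing to a fit with slide as a fixed block. That fit therefore rests on 1 irradiated p38DKI array, and a gene that does not pass there decides little. When slide entered the fit as a fixed block, the differences were -0.97 for Slfn1, -0.93 for Slfn2, -1.63 for Slfn3, -3.36 for Slfn4, -0.15 for Slfn5, -1.18 for Slfn8 and -0.52 for Slfn9, all lower in p38DKI, and 0 of 7 passed. Scaling to the array median, normexp, or the liver transcript level as a covariate also left 0 of 7 past the threshold, with every gene still lower in p38DKI. Leaving out irradiated p38DKI array 2, the array high in liver transcripts, left 1 of 7 (Slfn8, -0.97, adjusted p = 0.0322), leaving out irradiated p38WT array 1 left 1 of 7 (Slfn8, -1.12, adjusted p = 0.0408) and leaving out irradiated p38WT array 4 left 3 of 7.

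**Figure D4:**
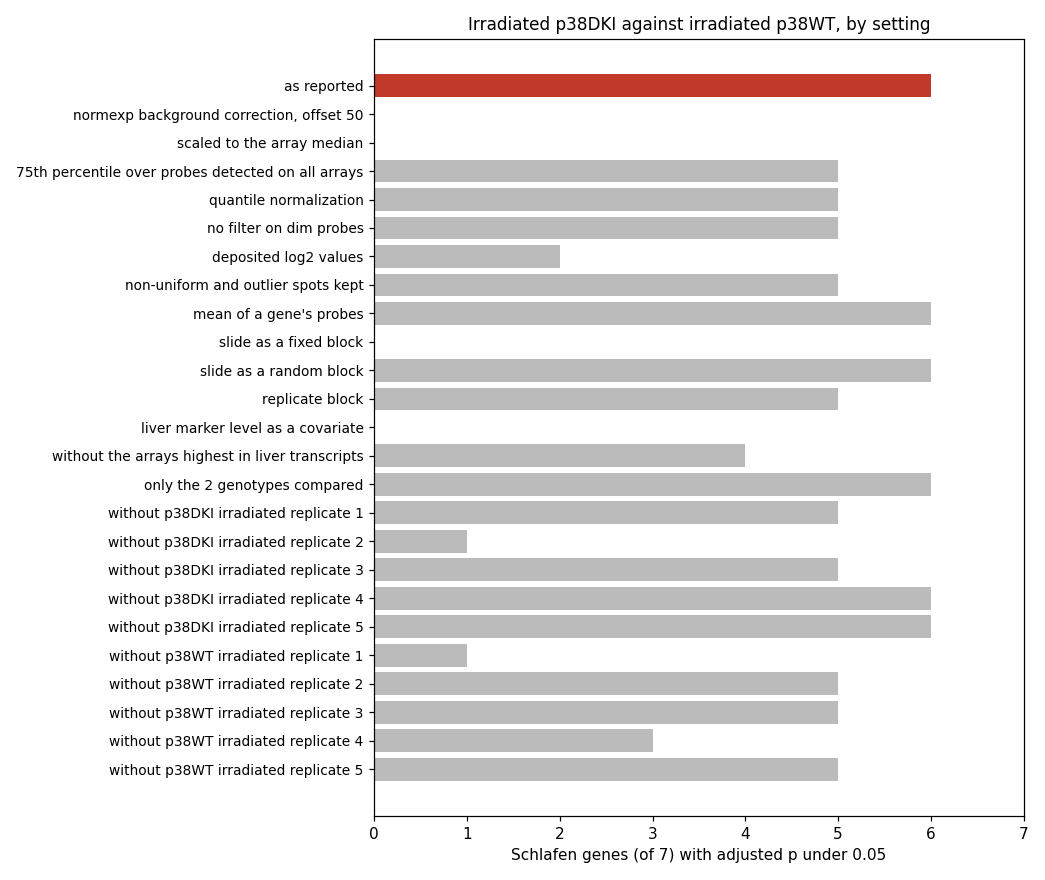
Number of the 7 Schlafen genes with a limma adjusted p under 0.05 between irradiated p38DKI and irradiated p38WT, under the reported setting (red bar) and under each other setting or left-out irradiated array (grey bars). The reported count is 6, and 0 remain under normexp, median scaling, slide as a fixed block and the liver covariate.

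None of the 7 genes passed between unirradiated p38DKI and p38WT (0 of 7 by limma, beside 0.102% of all genes). At an unadjusted p under 0.05 there were 2 of 7, beside 1376 of all 18718 genes. The rise that chose the members was measured from these same unirradiated arrays, so neither count is an independent test of the family. Slfn4 had the largest difference, -1.57 (interval -2.51 to -0.64, limma adjusted p = 0.255), on a probe near background. Slfn1 differed by -0.65 (interval -1.27 to -0.032), and the other 5 by -0.34 to 0.11.

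Whether irradiation changed a gene by different amounts in the 2 genotypes was tested by the interaction. It subtracts the p38WT irradiation change, which was among the contrasts that chose the members. That choice can favour differences below 0, so the interaction is not an independent test of the family. For p38DKI against p38WT 0 of 7 passed by limma, beside 0.00534% of all genes. At an unadjusted p under 0.05 there were 4 of 7, beside 2612 of all 18718 genes. All 7 differences were below 0, with a median of -0.74, beside a median of -0.22 over all 18718 genes. Their intervals were wide: -2.41 to -0.30 for Slfn3 (-1.36), -1.80 to -0.15 for Slfn8 (-0.97) and -1.60 to 1.05 for Slfn4 (-0.27). The sign for Slfn4 was not settled, since median scaling gave 0.15 and quantile normalization 0.20. An interval that includes 0 does not show that the changes were alike.

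For p38DN against p38WT the interaction again gave 0 of 7 by limma, beside 1.64% of all genes. At an unadjusted p under 0.05 there was 1 of 7 (Slfn3), beside 3553 of all 18718 genes. These differences, too, contain the p38WT change that chose the members, and are not an independent test of the family. The Slfn3 difference was -1.12 (interval -2.17 to -0.066, limma adjusted p = 0.233). That of Slfn9 was 0.65 (interval -0.12 to 1.43), and the other 5 lay between -0.62 and -0.38. Without the 4 arrays high in liver transcripts, 3 of which are unirradiated p38DN arrays, the Slfn3 difference was -2.21 and passed (limma adjusted p = 0.00877). Those 3 arrays had the lowest Slfn3 levels of their group, which left arrays 1 and 3 as its baseline. The Slfn3 probe was well above background on 1 of 5 arrays there. With the liver transcript level as a covariate the Slfn3 difference was -1.96 (limma adjusted p = 0.00279), and Slfn2 passed as well (limma adjusted p = 0.0499). The median liver level in p38DN was 7.14 without irradiation and 1.67 after it, so this covariate is not separate from dose. These passes therefore decide little.

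**Figure D5:**
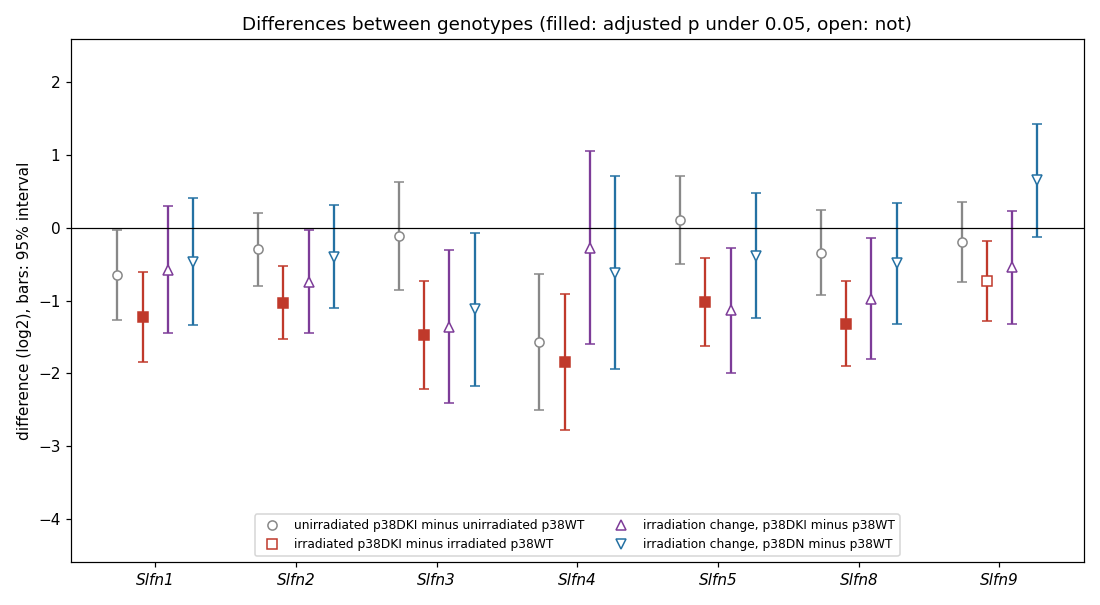
Difference (log2) with 95% interval for each Schlafen gene in 4 genotype comparisons, Slfn5, Slfn8 and Slfn9 by their brighter probe. The red squares, irradiated p38DKI minus irradiated p38WT, lie below 0 for all 7 genes and are filled for the 6 that passed, and none of the other comparisons has a filled marker.

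The interferon pathway around the family was followed in 3 lists. Of 30 interferon-stimulated effectors, genes that carry out the antiviral state, 21 rose and 0 fell in p38WT, 23 rose and 2 fell in p38DKI, and 23 rose and 3 fell in p38DN, with median changes of 1.72, 1.42 and 1.70. Over all genes 15%, 12.1% and 17.6% rose and 12.1%, 19.3% and 10.3% fell, in the same order of genotypes. The 3 that changed most in p38WT were Ifit3, an antiviral member of the Ifit family, at 43.8-fold, Oasl1, a repressor of Irf7 translation, at 11.2-fold, and Oas2, which makes the messenger that activates RNase L, at 9.92-fold. Of 13 interferon transcription factors and feedback inhibitors 5 rose and 2 fell in p38WT. Usp18, the enzyme that shuts off interferon receptor signalling, rose 5.88-fold, whereas Irf8 fell by 1.61 and Irf5 fell by 1.56 log2 units. Of 8 measured ligands, receptors and kinases of a list of 9, 2 rose and 0 fell in p38WT: Ifng, the type II interferon, 2.43-fold and the kinase Jak2 1.72-fold. The type I interferon Ifnb1 was not well above background on any irradiated array.

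In irradiated blood 6 of the 30 effectors were lower in p38DKI than in p38WT and 0 higher, with a median difference of -0.59. Of all genes 3.36% passed as lower and 1.15% as higher, with a median of -0.10. The calls in this paragraph are from the reported setting and were not checked under the other settings. Ifit3 was 2.19-fold lower (limma adjusted p = 0.0349) and Oasl1 2.2-fold lower (limma adjusted p = 0.0143). Oas2 did not pass (-0.74, limma adjusted p = 0.127). Of the 13 transcription factors and feedback inhibitors 2 were lower and 0 higher, among them Usp18, 1.83-fold lower (limma adjusted p = 0.0425). The mean level over the 30 effectors was 3.55 to 3.80 on irradiated p38WT arrays and 2.17 to 3.50 on irradiated p38DKI arrays, which did not overlap. For the interaction with p38DKI 0 of 30 effectors passed by limma (2 of 30 at an unadjusted p under 0.05, beside 2612 of all 18718 genes).

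Because Slfn2 is a quiescence gene, 14 genes of T cell quiescence and homing were set beside it. Of these, 8 of 14 fell and 0 rose in p38WT, 8 of 14 fell in p38DKI and 7 of 14 in p38DN. The share of all genes that fell was 12.1%, 19.3% and 10.3% in the same order. Ccr7, the homing receptor of resting lymphocytes, fell by 3.70, Tcf7, a factor of naive T cells, fell by 3.05 and Bach2, a repressor that keeps lymphocytes resting, fell by 2.75 log2 units in p38WT. Between irradiated p38DKI and p38WT 0 of the 14 passed by limma (2 of 14 at an unadjusted p under 0.05, median difference -0.18). Over all 18718 genes 4636 had an unadjusted p under 0.05 in that comparison.

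Markers of blood cell types moved strongly with dose, in the same arrays as the Schlafen genes. The shares of all genes that rose were 15%, 12.1% and 17.6% in p38WT, p38DKI and p38DN. Those that fell were 12.1%, 19.3% and 10.3%. All 12 neutrophil markers rose in p38WT (median 2.05), 10 of 12 in p38DKI (1.65) and 2 of 12 in p38DN (0.71), the last near the share of all genes. All 10 platelet markers rose in p38WT, 5 in p38DKI and 10 in p38DN. NK cell markers rose for 8 of 10 in p38WT, 3 in p38DKI and 1 in p38DN. B cell markers fell for 10 of 10 in each genotype. The size of that fall is limited by the background, since in irradiated blood Pax5 was well above background on no array of p38WT or p38DKI, and Fcer2a on none of p38WT or p38DN. T cell markers fell for 5, 7 and 3 of 10 (1 rose in p38DN), and monocyte markers for 3, 4 and 2 of 11, with 1 rising in p38WT and 4 in p38DN.

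Markers also differed between the irradiated genotypes. Of the 12 neutrophil markers 4 were lower in irradiated p38DKI than in irradiated p38WT and 0 higher (median -1.06), and their mean level was 4.65 to 5.17 in p38WT and 2.73 to 4.32 in p38DKI, with no overlap and with array 2 the lowest. In that comparison no B cell, T cell, NK cell, monocyte or platelet marker passed by limma (0, 3, 6, 2 and 7 had an unadjusted p under 0.05, as did 11 of 12 neutrophil and 9 of 12 liver markers), whereas 3 of 10 erythroid markers and 1 of 11 RNA quality and stress genes were lower and 1 of 12 liver markers was higher. Over all 18718 genes 3.36% passed as lower and 1.15% as higher, and 4636 had an unadjusted p under 0.05 there. The part of the neutrophil and liver markers in the Schlafen differences was not tested beyond the liver covariate and left-out arrays given above.

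The remaining lists carry less. Erythroid markers fell for 4, 7 and 6 of 10 in p38WT, p38DKI and p38DN, with 1 rising in p38WT. Of 11 RNA quality and stress genes 4, 2 and 4 rose, and 1 fell in p38DKI. Of 12 liver markers none passed with dose in p38WT or p38DKI and 1 fell in p38DN, and of 7 measured heart muscle markers none passed in p38WT or p38DKI and 1 rose in p38DN.

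Other genes at the locus were counted in the same way. Of 27 kept non-member genes within 500 kb of the outermost member probes, 6 rose and 1 fell in p38WT, 4 rose and 3 fell in p38DKI, and 5 rose and 1 fell in p38DN, with medians of 0.047, -0.17 and 0.21. Over all genes 15%, 12.1% and 17.6% rose, so these counts lie near the background. In irradiated blood 2 of the 27 were lower in p38DKI than in p38WT and 0 higher (median -0.21), beside 3.36% lower over all genes. The 1 non-member between the outermost member probes was Slfn10-ps, a Schlafen pseudogene by its symbol, read at chr11:82842116-82842175 on mm9.

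Slfn10-ps was itself 1 of the 2. Its levels in p38WT ranged from -0.32 to -0.17 without irradiation and from 1.23 to 1.71 after it, a change of 1.63 (limma adjusted p = 1.50e-04). It changed by 0.68 in p38DKI (limma adjusted p = 0.0730) and by 1.24 in p38DN (limma adjusted p = 0.00188), and was 2.42-fold lower in irradiated p38DKI than in irradiated p38WT (limma adjusted p = 0.0152). Of the other Schlafen symbols outside the 7, Slfn14 and Slfn5os passed in none of the irradiation and genotype comparisons, and the change of Slfn14 in p38WT was 0.37. Slfnl1 was well above background on no array.

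How the members varied together within groups was described by correlation. Across the 30 deviations from group means, Pearson's r between members ran from -0.29 to 0.88 over 21 pairs, with a median of 0.53. Slfn1 and Slfn2 had the highest r (0.88), Slfn2 and Slfn8 had 0.77, and Slfn9 had r below 0.21 with every other member. Without irradiated p38DKI array 2 the median was 0.32 and the highest 0.82. The genes most like Slfn2 in this sense were Trim30a (0.93), Tnfaip8l2 (0.92) and Ptpn6 (0.90), and Trim30a was also the most like Slfn1 (0.88), followed by Oxtr (0.85) and an unnamed probe (0.85).

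For Slfn4 the most alike genes were Niban1 (0.77), Skil (0.77) and Ctcf (0.77), and for Slfn3 they were Alyref2 (0.80), Poc5 (0.78) and an Ensembl transcript with no symbol (0.77). For Slfn8 they were Snx6 (0.85), Slfn10-ps (0.85) and an unnamed probe (0.85), and for Slfn9 Ddx3y (0.86), Snhg7 (0.77) and Srp54a (0.77). The brighter Slfn5 probe was most like Myo18a (0.97), an Ensembl transcript with no symbol (0.96) and Ptpn5 (0.96). These are descriptions over 30 arrays that share slides and scaling.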

How the data were processed

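Whole-blood RNA of 30 mice in 6 groups of 5 was read on 1-colour Agilent arrays. Intensity values were the processed signals deposited by the authors, made with Agilent Feature Extraction 12.0.2 per the file headers, which list spatial and multiplicative detrending as switched on and background correction as switched off. The authors also deposited a table of log2 values for 18417 probes; for 18391 of them it matched the scanner values up to a constant per array (-0.64 to 1.16, 99.28% of values within 0.01), with column medians of 4.77 to 5.77, and why those constants differ is not given in the sources used here. It served as an alternative.

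Control spots and spots marked as non-uniform or population outliers were left out. Log2 intensity was taken relative to the 75th percentile of the array. Probes were kept if well above background on at least 4 arrays of a group and with a value on at least 20 arrays, and each gene was represented by its brightest kept probe. Probe names were updated through accession for 29056 probes, symbol for 3150 and synonym for 116, and kept from the file for 7107. Groups were fitted together with limma 3.58.1 in R 4.3.3 (24 residual degrees of freedom before moderation), with Benjamini-Hochberg adjustment over all genes and a threshold of 0.05, and 95% intervals. The scripts were tested on simulated data. Promoter sequences came from RefSeq (GRCm38.p6).

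Members and gene lists were chosen with earlier results of these data known. Named genes are the 7 members, other Schlafen symbols, from each pathway list the 3 with the largest p38WT irradiation change past the threshold, and for each member the 3 genes with the highest correlation. Alternatives changed the background correction (normexp, offset 50), scaling, filter, spots, probe rule, slide, replicate block, liver transcripts, fitted samples and each array in turn.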

Additional observations from a re-analysis of the deposited data

Results flagged for a closer look

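In 6 of the 42 combinations of a Schlafen gene and a group of 5 arrays, 1 array lay far from the other 4, with a gap to its nearest neighbour of over 0.71 of the whole range (Dixon's 95% value for 5 samples). Chance alone gives such a gap in about 1 of 20 groups. The genes share arrays and vary together, so the 42 combinations are not independent and that share is no test of the count. Irradiated p38WT array 1 was the highest of its group for Slfn2 (5.12, gap 0.721 of the range), Slfn3 (1.76, gap 0.907) and Slfn8 (3.98, gap 0.801). Irradiated p38DKI array 2, which was high in liver transcripts, was the lowest of its group for Slfn2 (2.50, gap 0.72) and Slfn8 (0.504, gap 0.766). Unirradiated p38DN array 3 was the lowest of its group for Slfn9 (-2.98, gap 0.889). The first 2 of these arrays lie on opposite sides of the comparison of irradiated p38DKI with irradiated p38WT. There, without p38DKI array 2, the difference was -0.74 for Slfn2 and -1.24 for Slfn3, and without p38WT array 1 it was -0.92 and -1.37, while that of Slfn8 was -0.97 and -1.12 in the same order of arrays.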

How the results depend on the processing

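Between irradiated p38DKI and p38WT, the count of 6 Schlafen genes was 0 with normexp, array median scaling, slide as a fixed block or the liver covariate, and 2 in the deposited table, which held 7 member probes. It was 4 to 6 under the other settings, and 1 to 7 when 1 array was left out. The 7 differences stayed below 0 under every setting run. For p38DN against p38WT the interaction count was 2 with the liver covariate and 1 without the 4 liver-high arrays. The replicate number as a block gave 5 of 7 in the irradiated comparison. Same-numbered p38DN arrays share a slide, and whether the numbers otherwise pair the samples was not settled. The correlations of same-numbered deviations ran from -0.13 to 0.30, -0.21 to 0.40 and -0.15 to 0.41 in p38WT, p38DKI and p38DN. They were no clearer in p38DN, where a slide is shared, so they cannot exclude a pairing. Array median scaling moved the median irradiation change of all genes in p38DKI from -0.25 to 0.17, and calls there from 2261 higher and 3604 lower to 3791 and 1279. The Slfn4 change under normexp, whose offset of 50 shrinks changes from dim baselines, was 3.96, 2.90 and 1.74 in p38WT, p38DKI and p38DN. It was 4.49 in p38WT with slide as a fixed block. Differences that changed sign had not passed in either fit. Unirradiated, p38DKI minus p38WT: Slfn2 0.018 and Slfn3 0.40 (liver covariate); Slfn3 0.32, Slfn5 -0.28 and Slfn9 0.053 (normexp); Slfn5 -0.24 (array median), -0.0095 (deposited table) and -0.13 (probe mean); Slfn9 0.020 (slide fixed). When 1 array was left out, Slfn3 ranged from -0.32 to 0.055 (above 0 in 2 of 30 fits, the other 0.0019) and Slfn5 from -0.088 to 0.27 (below 0 in 2, the other -0.016). In the p38DKI interaction these were Slfn1 0.52 and Slfn4 0.37 (slide fixed), Slfn2 0.20 (normexp), and Slfn4 0.15 (array median), 0.20 (quantile) and 0.039 (deposited table). In the p38DN interaction they were Slfn1 0.49, Slfn2 0.12, Slfn4 0.79 and Slfn5 0.042 (slide fixed), Slfn2 0.29, Slfn5 0.59 and Slfn9 -0.15 (normexp) and Slfn9 -0.33 (deposited table, which reads Slfn9 by its dimmer probe). The cause of these changes was not tested. Signals near background limit unirradiated Slfn3, Slfn4 and the dimmer probes.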

Other observations

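Slfn5os, the transcript named for the strand opposite Slfn5, stood apart by genotype like the brighter Slfn5 probe did. It was well above background on 4 of 5 unirradiated p38DN arrays (-3.58 to -1.79) and on 1 of 5 irradiated ones (-3.89 to -2.44). It was well above background on 0 of 5 arrays in each of the 4 other groups, where its signal ranged from -6.41 to -3.61. The brighter Slfn5 probe had means of 3.98 ± 0.49 and 3.85 ± 0.22 in unirradiated and irradiated p38DN (SD, n = 5) and between 1.39 and 2.41 in the other groups. The RefSeq Slfn5 probe had means of -3.45 ± 0.97 and -2.77 ± 0.28 in p38DN, within or near the range of the other groups. All p38DN arrays lay on their own slides with their own scan days, so genotype and array batch cannot be told apart here, and no test of these levels was made.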
